A study of Mus musculus with 6 samples.

Results

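The genes described here were the Wnt ligands, their receptors and the genes that feed back on them, measured by bulk RNA sequencing in mouse embryo fibroblasts (MEFs) with and without Mcm8. The members were the protein-coding rows of the deposited gene table whose symbols are those of Wnt ligands, Frizzled receptors (Fzd), the co-receptors Lrp5 and Lrp6, secreted inhibitors (Sfrp and Dkk), R-spondins (Rspo), the R-spondin receptors Lgr4, Lgr5 and Lgr6, the scaffolds Axin1 and Axin2, and the TCF/LEF transcription factors. These were 52 of the 55565 genes listed. WT MEFs were Mcm8+/+ and KO MEFs were Mcm8-/-, with 3 libraries of each genotype (WT1, WT2, WT3, KO1, KO2 and KO3). Both came from trunks of E13.5 embryos of a mixed C57BL/6J and ICR background, both carried an SV40 gene delivered by lentivirus for immortalization, and both had been selected with puromycin. Whether the 3 repeats came from different embryos or from cultures of 1 line is not given in the sources used here, so the spread between libraries may be partly technical.

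Wnt ligands are secreted lipid-modified proteins that bind a Frizzled receptor. When Lrp5 or Lrp6 joins the complex, the destruction complex built on Axin is held back, β-catenin accumulates, and TCF/LEF factors on DNA pass from repression to activation of target genes. Other ligand and receptor pairs, of which Wnt5a with Ror receptors is the textbook case, act on cell shape and polarity without β-catenin. The pathway is damped by its own products: Axin2 and the ubiquitin ligases Rnf43 and Znrf3 are induced by Wnt signalling and limit it, and R-spondins relieve the latter brake by binding Lgr receptors. In embryonic mesenchyme the pathway patterns limbs, skeleton and skin.

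The libraries held between 12722979 and 21022755 counts. Mcm8, the targeted gene, had 176, 233 and 238 counts in WT and 89, 74 and 66 in KO, a fall of 1.75 on the log2 scale (SE 0.16), which follows the labels. Fibroblast markers were abundant in both genotypes, with a summed level of 19693 to 21649 CPM (counts scaled to a common library depth) over 9 markers in WT and 20574 to 21210 in KO. Of these, 2 (Col1a1 and Col3a1) were higher and 3 (Thy1, Pdgfrb and Vim) lower in KO. Other markers differed between genotypes as well. Summed CPM was 4.06 to 5.41 in WT and 12.8 to 13.6 in KO over 10 epithelial markers, of which 3 (Krt8, Krt18 and Krt19) rose and Krt5 and Esrp1 were at 0 in all libraries, and 6.42 to 7.37 against 49.3 to 55.96 over 6 mesothelial markers, where Msln accounted for most of the sum. Krt19 is in both of these lists. Over 4 cartilage markers the sum was 13.97 to 16.2 against 35.8 to 36.5, with Sox9 and Acan higher. Over 5 neural and glial markers it was 25.7 to 28.8 against 40.3 to 42.0, with Tubb3 and Sox2 higher and Sox10 at 0 in all libraries. Endothelial (at most 4.33 CPM), immune (at most 3.40) and skeletal muscle (at most 0.301) markers had no call by edgeR or DESeq2, and 0 of them had an unadjusted p below 0.05. Summed CPM of 4 Y-linked genes was 24.3 to 25.9 in WT and 108 to 126 in KO, and Xist lay at 940 to 1359 in WT and 474 to 494 in KO. The part of these differences in the results on Wnt genes was not tested. In bulk RNA a lower level in every cell and fewer cells expressing a gene cannot be told apart.

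A few of the Wnt genes differed between genotypes. Of the 52 members, 48 had a count in at least 1 library and were tested together with all 26898 such genes, by the quasi-likelihood test of edgeR with Benjamini-Hochberg adjustment. Wnt10a, Wnt10b, Wnt7b, Axin2 and Tcf7 were higher in KO as differentially expressed genes (DEGs), that is, with a change above 2-fold and an adjusted p below 0.05. These 5 were 10.4% of the members tested, and 1.75% of all genes tested were DEGs in that direction. Lgr5 was the only member DEG that was lower, 2.08% of the members tested, beside 0.665% of all genes. With the adjusted p alone, without a limit on fold, 8 members were higher (16.7% of those tested, beside 4.97% of all genes) and 3 were lower (6.25%, beside 4.03%). Fzd1, Dkk3 and Lgr6 joined the higher set and Sfrp2 and Lgr4 the lower one. The shares over all genes include many barely detected genes, since 16726 of the 26898 had a count in every library. The median log2 fold change over the tested members was 0.24, beside 0.01 over all genes tested. This median rests on the libraries used: it was 0.15 without KO3 and 0.30 without KO1.

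**Figure D1:**
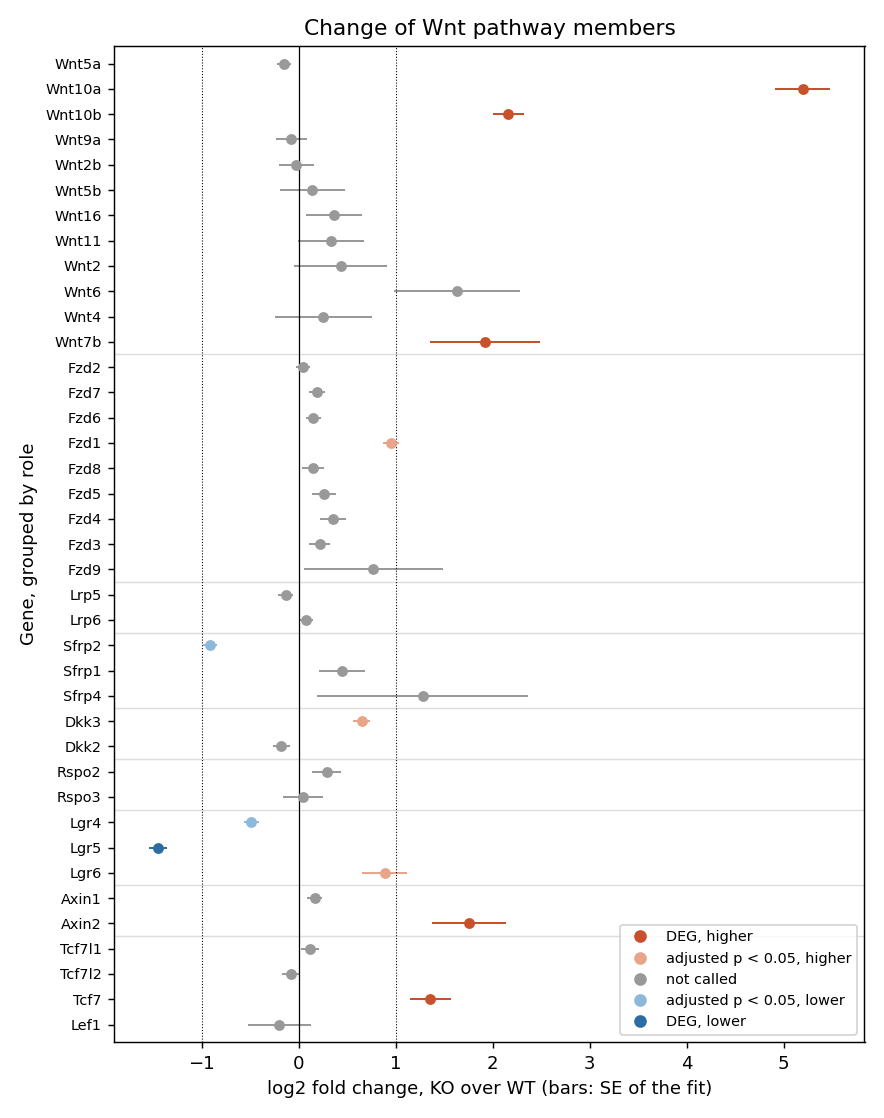
The log2 fold change of KO over WT (x axis) is drawn for the 39 members that had more than 3 counts in some library of each genotype, grouped by role from ligands at the top to TCF/LEF factors at the bottom, with bars for the SE of the fit and dotted lines at 2-fold. Wnt10a stands at 5.20, far to the right of all other members drawn, and Lgr5 at -1.45 is the lowest.

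Among the ligands the largest change was in Wnt10a (ENSMUSG00000026167, chromosome 1 from 74830675 to 74843338, plus strand, GRCm39), a ligand of skin appendages and teeth that acts through β-catenin. Its counts were 7, 4 and 18 in the WT libraries (here and below in the order of their numbers) and 475, 420 and 371 in the KO libraries. In FPKM, the authors' unit corrected for gene length and library depth, it lay at 0.222, 0.115 and 0.387 in WT and at 9.03, 10.2 and 9.34 in KO. It was near the detection limit in WT and among the well-measured ligands in KO, and the genotypes did not overlap. The log2 fold change was 5.20 (SE 0.28, edgeR adjusted p = 4.66e-142), or 39.4-fold between the mean CPM values. With 29 counts over the 3 WT libraries its size is loosely fixed: the log2 fold change was 5.82 without WT3 and 4.88 without WT2.

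Wnt10b (ENSMUSG00000022996, chromosome 15 from 98668593 to 98676031, minus strand, GRCm39) is the closest relative of Wnt10a and is known for holding back fat cell formation in mesenchymal progenitors. Its counts were 57, 56 and 75 in WT and 401, 307 and 295 in KO. FPKM values were 1.31, 1.17 and 1.17 in WT and 5.53, 5.41 and 5.39 in KO, so that the 3 libraries of each genotype lay close together and far from the other genotype. It rose by 2.16 on the log2 scale (SE 0.16, edgeR adjusted p = 4.36e-44). In WT the level of Wnt10a was 0.0984 to 0.331 of that of Wnt10b in FPKM. In KO it was 1.63 to 1.89 times that of Wnt10b, so the order of this pair was the opposite in the 2 genotypes. The 250 bases before the annotated start of Wnt10b are shown as those of a called ligand (RefSeq, GRCm38.p6, chr15:98778151-98778400, minus strand, 5′ to 3′):

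Wnt10b: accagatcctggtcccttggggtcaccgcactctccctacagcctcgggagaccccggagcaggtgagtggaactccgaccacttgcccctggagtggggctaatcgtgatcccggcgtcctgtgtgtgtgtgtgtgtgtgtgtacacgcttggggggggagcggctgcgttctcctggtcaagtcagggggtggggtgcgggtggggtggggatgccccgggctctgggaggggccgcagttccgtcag

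In this and the windows below, capitals mark TCAAAG or its reverse complement CTTTGA, the core letters to which TCF/LEF factors bind; a run without capitals holds neither. The Wnt10b window holds none. Over all 32851 promoter windows of this length in the table, 13.8% hold these letters on either strand. Windows were found for 34 of the 52 members, 42 windows in all, and 5 of the 42 (11.9%) hold them. The Wnt10b window has a GC content of 66.8% and 14 CpG dinucleotides, beside medians of 52.4% and 6 over all windows.

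Wnt7b (chromosome 15 from 85419638 to 85466674, minus strand), a ligand of lung and kidney epithelia and of bone-forming cells, was the third ligand called, at much lower levels. It had 4, 4 and 6 counts in WT and 31, 19 and 15 in KO, or 0.0581 to 0.0651 FPKM against 0.190 to 0.297. All KO libraries lay above all WT libraries. The rise was 1.92 on the log2 scale (SE 0.57, edgeR adjusted p = 0.0057), and the call was lost without KO1 (log2 fold change 1.73, adjusted p = 0.108). Wnt6, which lies next to Wnt10a, had 6, 3 and 3 counts in WT and 19, 12 and 15 in KO. It was higher in each KO library than in any WT library, at a log2 fold change of 1.63 (SE 0.65), and did not pass the test (edgeR adjusted p = 0.0850). Its adjusted p was 0.0236 without WT1 and 0.0443 with the filterByExpr gene filter.

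Wnt5a, the best known ligand of the β-catenin-independent branch, was the most abundant ligand in every library. Its FPKM values were 18.4, 19.8 and 20.4 in WT and 17.1, 18.4 and 17.2 in KO. The genotypes overlapped, the log2 fold change was -0.15 (95% interval from -0.29 to -0.01 before adjustment), and the adjusted p of 0.227 missed the threshold; without WT1 it passed, at a log2 fold change of -0.20. Wnt9a and Wnt2b were the next ligands without a call, with 2.05 to 2.95 and 1.12 to 1.86 FPKM in WT and 2.27 to 2.45 and 1.31 to 1.64 in KO. Wnt5b, Wnt16, Wnt11, Wnt2 and Wnt4 stayed below 1 FPKM in every library, with log2 fold changes between 0.14 and 0.43. Wnt5b overlaps Fbxl14 on the opposite strand, which had up to 1111 counts, and the kit used is not known to mark strand, so reads from the stretch that these 2 genes share cannot be told apart. Wnt1, Wnt3 and Wnt8a had at most 3 counts in any library. Wnt3a, Wnt7a, Wnt8b and Wnt9b had none. No ligand was lower in KO at an adjusted p below 0.05 by edgeR, DESeq2 or limma-voom, and 1 ligand, Wnt5a, was lower at an unadjusted p below 0.05, as were 8.47% of all genes tested.

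**Figure D2:**
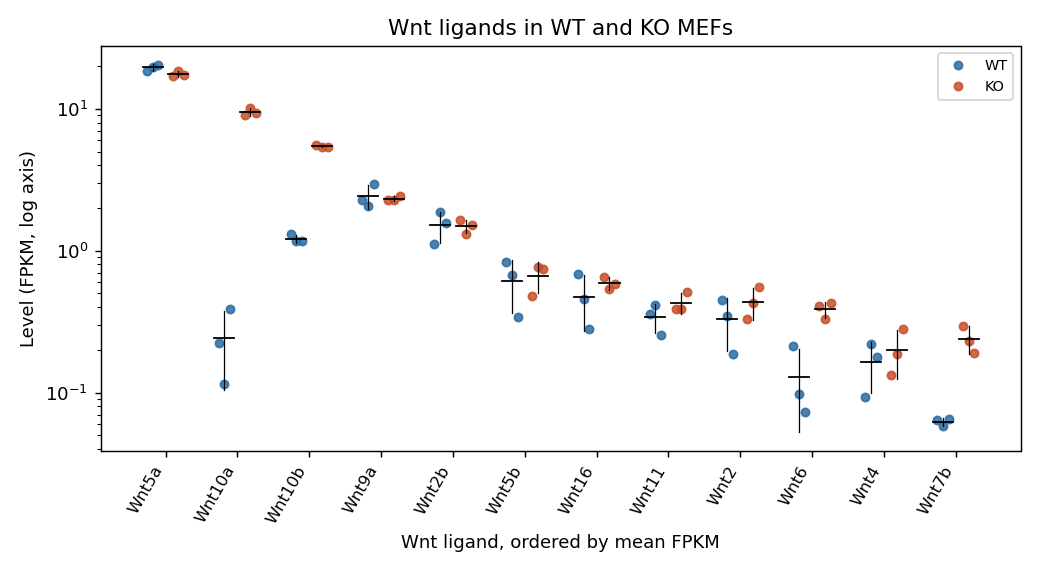
FPKM of the 12 Wnt ligands with more than 3 counts in some library is shown on a log axis, one dot per library, WT in blue and KO in orange, with horizontal lines for the mean and vertical lines for the SD of 3 libraries. Wnt5a lies near 20 FPKM in both genotypes, Wnt10a moves from 0.242 to 9.52 FPKM in the mean and Wnt10b from 1.22 to 5.44.

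Summed over all 19 ligands, the level was 26.1, 27.2 and 27.9 FPKM in WT and 38.3, 40.5 and 39.3 in KO, a ratio of 1.45 between the means. The sum describes transcripts and not secreted protein. Wnt5a made up 70.6%, 72.5% and 73.3% of it in WT and 44.7%, 45.4% and 43.8% in KO. Wnt10a rose from 0.888% ± 0.484 (SD, n = 3) to 24.2% ± 0.864, and Wnt10b from 4.51% ± 0.454 to 13.8% ± 0.55. Ranked by FPKM, Wnt10a took rank 9, 10 and 5 among the ligands in WT1, WT2 and WT3 and rank 2 in each KO library. Wnt9a held rank 2 in each WT library and rank 4 in each KO library, although its own level did not pass the test. Without Wnt5a the summed level was 2.89 times as high in KO, and with CPM in place of FPKM, where long transcripts weigh more, the ratio was 1.14.

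**Figure D3:**
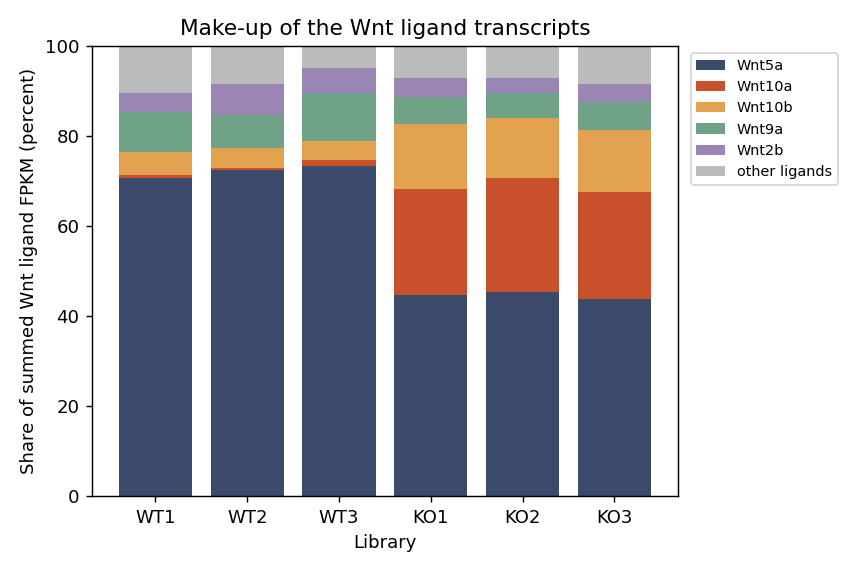
Each bar is 1 library and shows, in percent, how the summed Wnt ligand FPKM divides among the 5 ligands of highest mean level and the other ligands together. Wnt5a takes at least 70.6% of the bar in WT and at most 45.4% in KO, where Wnt10a takes at least 23.6%.

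Several Wnt genes lie side by side in the genome. Wnt6 ends 6193 bases before Wnt10a on chromosome 1, and Wnt10b and Wnt1 lie 11706 bases apart on chromosome 15. Wnt1 had a single count in all 6 libraries, while its neighbour Wnt10b rose. Of the 16 other tested genes within 250 kb of Wnt10a, none was a DEG by edgeR or DESeq2. At an unadjusted p below 0.05 there were 3, beside 9.47% of all genes higher and 8.47% lower. Stk36, with 54 to 132 counts in WT and 132 to 198 in KO, was the one whose adjusted p by edgeR was below 0.05 (0.0109), and it was not called by DESeq2 (0.0875) or limma-voom (0.0839). Within 250 kb of Wnt10b, 29 other genes were tested, of which 2 were DEGs by edgeR (Gm49450 and Ccdc65, both higher), beside 1.75% of all genes. At an unadjusted p below 0.05 there were 6, beside the same 9.47% and 8.47% of all genes. DESeq2 called Gm49450 and gave no adjusted p for Ccdc65, which had 2 counts in all WT libraries together. By edgeR, Arf3 and Kmt2d were also higher and Tuba1a lower at an adjusted p below 0.05 and less than 2-fold. Over all genes tested, 4.97% were higher and 4.03% lower at that adjusted p. DESeq2 did not call Kmt2d (adjusted p = 0.464) or Tuba1a (adjusted p = 0.0503).

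Among the receptors, Fzd1 was the one Frizzled gene that passed the adjusted test. Fzd1 (ENSMUSG00000044674, chromosome 5 from 4803839 to 4808035, minus strand, GRCm39) encodes a receptor of the subfamily it shares with Fzd2 and Fzd7. It had 508, 594 and 765 counts in WT and 1790, 1275 and 1241 in KO, and FPKM values of 9.48, 10.1 and 9.68 against 20.01, 18.2 and 18.4. The genotypes stood well apart, with a tight spread within each. Fzd1 rose by 0.95 on the log2 scale (SE 0.08, edgeR adjusted p = 1.04e-27), just under the 2-fold limit for a DEG. Its promoter window is shown as the one with a TCAAAG match among the windows of called members. No window was found for the called members Wnt10a, Wnt7b, Dkk3 and Lgr5. The match in the Fzd1 window begins 242 bases before the annotated start (RefSeq, GRCm38.p6, chr5:4758217-4758466, minus strand, 5′ to 3′):

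Fzd1: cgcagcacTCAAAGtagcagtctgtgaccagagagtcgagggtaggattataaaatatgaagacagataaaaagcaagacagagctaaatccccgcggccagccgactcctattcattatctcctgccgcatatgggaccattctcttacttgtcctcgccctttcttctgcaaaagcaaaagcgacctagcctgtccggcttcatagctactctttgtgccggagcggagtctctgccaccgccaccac

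Fzd2 was the most abundant Frizzled receptor, and its genotypes overlapped. Its FPKM values were 49.8, 45.2 and 49.8 in WT and 49.1, 51.6 and 49.0 in KO, and its log2 fold change of 0.05 had a 95% interval from -0.09 to 0.19. The excess of Fzd2 over Fzd1 was 4.49 to 5.25 in WT and 2.45 to 2.84 in KO. Fzd7 had 13.6, 15.0 and 14.8 FPKM in WT and 17.0, 16.4 and 16.2 in KO. It lay higher in all KO libraries, but by 0.19 on the log2 scale (SE 0.08), and did not pass the test (edgeR adjusted p = 0.138). Fzd6, Fzd8, Fzd5, Fzd4, Fzd3 and Fzd9 were not called either, with log2 fold changes between 0.15 and 0.77, and Fzd10 had at most 1 count in any library. At an unadjusted p below 0.05, 5 of 10 Frizzled genes were higher in KO (Fzd1, Fzd3, Fzd4, Fzd5 and Fzd7), beside 9.47% of all genes, and none was lower, beside 8.47%. No Frizzled gene was called lower by edgeR, DESeq2 or limma-voom.

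The co-receptors Lrp5 and Lrp6, which bring Axin to the membrane when a ligand binds, were both well expressed. Lrp5 lay at 12.1, 13.1 and 14.2 FPKM in WT and 11.95, 11.8 and 12.2 in KO, and its log2 fold change of -0.13 had a 95% interval from -0.28 to 0.01. Lrp6 lay at 9.45, 10.8 and 11.3 FPKM in WT and 10.9, 11.1 and 11.3 in KO, with a log2 fold change of 0.08 and an interval from -0.06 to 0.22. The genotypes overlapped for both. Neither passed at an unadjusted p below 0.05, nor by DESeq2 or limma-voom. Lrp5 was lower at an adjusted p of 0.0058 when WT1 was left out (log2 fold change -0.19).

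Among the secreted inhibitors, Sfrp2 was lower and Dkk3 higher by edgeR, and no other Sfrp or Dkk gene was called. Sfrp2 (ENSMUSG00000027996, chromosome 3 from 83673628 to 83681623, plus strand, GRCm39), a soluble protein with a Frizzled-like domain that binds Wnt ligands, was the most abundant of all 52 members per length in WT. It fell from 90.5, 85.3 and 84.2 FPKM in WT to 44.9, 46.3 and 46.7 in KO, with no overlap. It fell by 0.91 on the log2 scale (SE 0.07, edgeR adjusted p = 3.58e-33), to a mean CPM in KO of 53.1% of that in WT. Within a library Sfrp2 was 4.12 to 4.91 times as abundant as Wnt5a in WT and 2.51 to 2.72 times in KO. Its window, shown as that of the inhibitor that fell, holds no TCAAAG or CTTTGA (RefSeq, GRCm38.p6, chr3:83766071-83766320, plus strand, 5′ to 3′):

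Sfrp2: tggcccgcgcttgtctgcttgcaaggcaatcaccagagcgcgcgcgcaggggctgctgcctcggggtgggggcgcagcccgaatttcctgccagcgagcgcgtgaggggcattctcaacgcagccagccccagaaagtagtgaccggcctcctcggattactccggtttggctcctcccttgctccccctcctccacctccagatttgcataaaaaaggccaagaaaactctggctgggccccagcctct

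Sfrp1, a close relative, was low at 0.699, 0.635 and 0.632 FPKM in WT and 1.03, 0.754 and 0.881 in KO. It lay higher in each KO library, at a log2 fold change of 0.45 (SE 0.24) that did not pass the test (edgeR adjusted p = 0.302). Sfrp4 had at most 11 counts and Sfrp5 at most 2.

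Dkk3, a divergent Dickkopf protein whose part in Wnt signalling is less settled than that of its relatives, rose. It lay at 10.8, 10.98 and 11.07 FPKM in WT and 16.9, 16.6 and 18.1 in KO, a log2 fold change of 0.65 (SE 0.09, edgeR adjusted p = 8.65e-12). Dkk2, which binds Lrp5 and Lrp6, lay at 14.9, 14.6 and 14.04 FPKM in WT and 12.3, 12.4 and 13.8 in KO, slightly lower in each KO library. Its log2 fold change of -0.18 (SE 0.09) missed the threshold (edgeR adjusted p = 0.238). In the mean, Dkk2 was thus above Dkk3 in WT (14.5 against 10.9 FPKM) and below it in KO (12.8 against 17.2). Dkk1, the inhibitor most often described as a Wnt target, had a single count in all 6 libraries, and so did Dkk4.

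R-spondins were present at low levels and none was called by edgeR, DESeq2 or limma-voom. Rspo2 alone was higher at an unadjusted p below 0.05, beside 9.47% of all genes. Rspo2 lay at 2.02, 1.60 and 1.65 FPKM in WT and 2.02, 2.23 and 2.18 in KO. Rspo3 lay at 1.27, 1.17 and 1.75 FPKM in WT and 0.896, 1.82 and 1.73 in KO, so that KO1 was below all WT libraries and the other KO libraries lay near WT3. Its log2 fold change of 0.05 changed sign with the library left out. Rspo1 and Rspo4 had at most 5 and 10 counts.

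The Lgr receptors, which bind R-spondins, were the one role in which all members had an edgeR adjusted p below 0.05. Lgr5 and Lgr4 were lower, beside 4.03% of all genes, and Lgr6 was higher, beside 4.97%. The call of Lgr6 depended on the test and the libraries used, as given below. Lgr5 (ENSMUSG00000020140, chromosome 10 from 115286216 to 115423685, minus strand, GRCm39), known as a marker of Wnt-dependent stem cells in gut and hair follicle, had 635, 872 and 1082 counts in WT and 476, 314 and 331 in KO. FPKM values were 4.85, 6.05 and 5.60 in WT and 2.18, 1.83 and 2.004 in KO, without overlap. Lgr5 fell by 1.45 on the log2 scale (SE 0.09, edgeR adjusted p = 3.74e-51), so the mean CPM in KO was 36.5% of that in WT. Of the 11 other tested genes within 250 kb of Lgr5, 4 had an unadjusted p below 0.05, beside 9.47% of all genes higher and 8.47% lower. Tbc1d15 was lower at an adjusted p below 0.05, beside 4.03% of all genes. A130012E19Rik, with at most 6 counts in a WT library, was a DEG (higher) by edgeR (adjusted p = 0.0278), beside 1.75% of all genes. It was not called by DESeq2 (adjusted p = 0.112), limma-voom (0.0836) or with the replicate block (0.0532).

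Lgr4, the broadly expressed relative, was the most abundant Lgr gene and fell less. Its FPKM values were 18.4, 19.5 and 18.5 in WT and 13.9, 13.5 and 12.7 in KO, a log2 fold change of -0.49 (SE 0.08, edgeR adjusted p = 9.11e-09). The excess of Lgr4 over Lgr5 was 3.23 to 3.80 in WT and 6.35 to 7.38 in KO. Lgr6, at 0.572, 0.416 and 0.186 FPKM in WT and 0.637, 0.665 and 0.798 in KO, lay higher in each KO library. Its log2 fold change was 0.89 (SE 0.23, edgeR adjusted p = 0.00252), but WT3 was far below the other WT libraries, and without WT3 the change was 0.51 and the call was lost (adjusted p = 0.226). The call was also lost by DESeq2 (adjusted p = 0.0931) and, in edgeR, with only genes passing filterByExpr (0.0735) or with FPKM above 0 in every library (0.0731). Summed over the 3 genes the level was 23.8, 25.98 and 24.3 FPKM in WT and 16.8, 16.0 and 15.5 in KO.

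**Figure D4:**
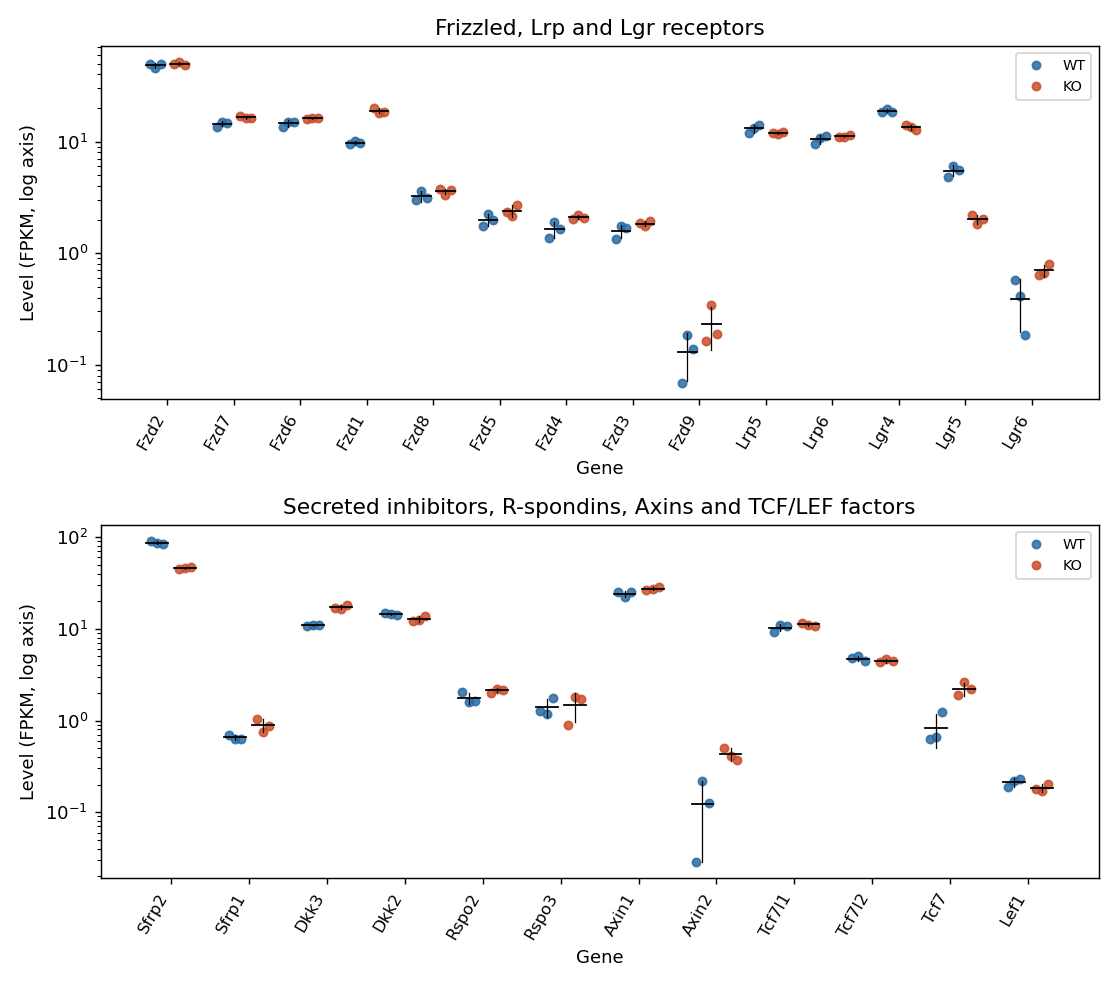
FPKM by library on log axes for 14 receptor genes (upper panel) and 12 inhibitors, R-spondins, Axins and TCF/LEF factors (lower panel), WT in blue and KO in orange, with the mean and SD of 3 libraries. Members at 0 in some library, or with at most 3 counts in every library of a genotype, are not drawn. Fzd1 and Dkk3 lie higher in KO, Lgr5, Lgr4 and Sfrp2 lower, and Axin2 and Tcf7 rise from low levels with wide spread among the WT libraries.

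The feedback scaffold Axin2 rose from a very low level. Axin2 (ENSMUSG00000000142, chromosome 11 from 108811175 to 108841609, plus strand, GRCm39), a component of the destruction complex and the most widely used transcriptional readout of β-catenin, had 2, 17 and 13 counts in WT and 59, 38 and 33 in KO. FPKM values were 0.0285, 0.220 and 0.125 in WT and 0.503, 0.414 and 0.373 in KO. All KO libraries lay above all WT libraries, and the WT libraries differed widely from each other. The log2 fold change was 1.76 (SE 0.38, edgeR adjusted p = 4.91e-05; DESeq2 adjusted p = 0.0087), with a range of 1.35 to 2.34 when 1 library was left out. Axin1, the constitutive scaffold, lay at 25.1, 22.2 and 25.5 FPKM in WT and 26.3, 27.2 and 28.4 in KO. Its log2 fold change of 0.17 (SE 0.08) missed the threshold (edgeR adjusted p = 0.186), and without WT1 it passed at 0.19. Axin1 was 101 to 883 times as abundant as Axin2 in WT and 52.3 to 76.1 times in KO. The Axin2 window is shown as that of the pathway's readout gene (RefSeq, GRCm38.p6, chr11:108920099-108920348, plus strand, 5′ to 3′). It holds no TCAAAG or CTTTGA, and its GC content is 69.2% with 24 CpG dinucleotides:

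Axin2: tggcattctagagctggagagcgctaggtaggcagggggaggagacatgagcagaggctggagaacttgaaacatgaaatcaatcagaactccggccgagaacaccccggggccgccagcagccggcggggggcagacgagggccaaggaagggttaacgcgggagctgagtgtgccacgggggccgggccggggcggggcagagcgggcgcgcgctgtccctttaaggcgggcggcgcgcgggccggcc

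Of the TCF/LEF factors, Tcf7 changed. Tcf7 (chromosome 11 from 52143198 to 52174158, minus strand), which encodes the factor TCF1 known from T cells and is itself a Wnt target, had 24, 28 and 70 counts in WT and 122, 132 and 106 in KO. FPKM values were 0.623, 0.660 and 1.23 in WT and 1.90, 2.62 and 2.18 in KO. WT3 stood above the other WT libraries but below all KO libraries. Tcf7 rose by 1.36 on the log2 scale (SE 0.22, edgeR adjusted p = 7.36e-09), and by 1.79 without WT3. Tcf7l1, a factor known mainly as a repressor, was the most abundant of the group at 9.24, 11.1 and 10.7 FPKM in WT and 11.7, 11.1 and 10.9 in KO. Tcf7l2 followed at 4.80, 5.02 and 4.43 FPKM in WT and 4.32, 4.68 and 4.43 in KO. Neither was called, with 95% intervals of the log2 fold change from -0.06 to 0.29 and from -0.26 to 0.09. Lef1 had 21 to 38 counts in all libraries and was not called. Tcf7l1 exceeded Tcf7 by 8.65 to 16.8 times in WT and by 4.25 to 6.15 times in KO.

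Of 64 further pathway genes, 62 were tested. Of these, 2 were DEGs that rose (3.23%, beside 1.75% of all genes). At an adjusted p below 0.05, 9 were higher (14.5%) and 6 lower (9.68%), beside the 4.97% and 4.03% of all genes. The number higher was 5 by DESeq2, and 5 also without KO2 or without KO3. Their median log2 fold change was 0.07. Ctnnb1, which encodes β-catenin, had 542 to 581 CPM in WT and 564 to 598 in KO and was not called. The ubiquitin ligase Rnf43, which removes Frizzled receptors from the membrane, was a DEG with 9, 6 and 16 counts in WT and 37, 28 and 36 in KO (log2 fold change 1.47, SE 0.41, edgeR adjusted p = 0.00405). Trabd2b, a membrane protease that cleaves Wnt ligands, was the other DEG, with 9, 16 and 3 counts in WT and 26, 36 and 28 in KO (1.40, SE 0.43, adjusted p = 0.0135). Its call was lost without WT3 (log2 fold change 0.86) or without KO2 (1.20), and by DESeq2 (adjusted p = 0.126). No gene of this list was a DEG in the lower direction by edgeR. At an unadjusted p below 0.05, 16 were higher and 7 lower, beside 9.47% and 8.47% of all genes.

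The co-repressor gene Tle1 rose from 34.6, 38.7 and 40.9 CPM in WT to 68.2, 72.1 and 73.6 in KO (log2 fold change 0.90, SE 0.09, edgeR adjusted p = 9.25e-24). Of 11 nuclear cofactors, 4 were higher by edgeR (Tle1, Tle2, Tle5 and Bcl9), beside 4.97% of all genes. DESeq2 called 2 of these, Tle1 and Bcl9, and gave adjusted p = 0.0839 for Tle2 and 0.0507 for Tle5, of which limma-voom called Tle5. None was lower by any of these tools, nor at an unadjusted p below 0.05. Vangl2, a core planar polarity gene, was higher at 24.8 to 26.3 CPM in KO against 15.8 to 19.9 in WT (log2 fold change 0.48, SE 0.11), whereas Prickle1 of the same pathway was lower (-0.40, SE 0.10). Prickle2 was lower by edgeR (-0.36, SE 0.12, adjusted p = 0.0248) but not by DESeq2 (adjusted p = 0.120) or limma-voom (adjusted p = 0.110). Of the 19 cytoplasmic genes, Dvl1 (0.24, SE 0.08) and Btrc (0.37, SE 0.10) were higher and Nkd2 and Dact1 lower by edgeR, beside 4.97% and 4.03% of all genes. DESeq2 did not call Dvl1 (adjusted p = 0.0509). Nkd2, whose product binds Dishevelled, fell from 7.45, 10.7 and 10.9 CPM to 5.81, 5.11 and 4.496 (log2 fold change -0.91, SE 0.17), and Dact1 from 16.0, 13.0 and 12.8 to 7.84, 8.84 and 8.12 (-0.75, SE 0.14). Their relatives Nkd1 (1.87, SE 1.21, with 4 counts in WT in all), Dact2 (-0.60, SE 0.35) and Dact3 (0.13, SE 0.10) were not called. Notum, a secreted enzyme that inactivates Wnt ligands, had no count in WT and 3, 1 and 5 in KO, and was not called (edgeR adjusted p = 0.184).

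Genes often read as β-catenin and TCF targets did not share a direction. Of 19 such genes, 18 were tested. At an adjusted p below 0.05, 4 were higher (Axin2, Tcf7, Rnf43 and Cd44), or 22.2% beside 4.97% of all genes, and 5 were lower (Lgr5, Ccn4, Ccnd1, Apcdd1 and Myc), or 27.8% beside 4.03%. DESeq2 gave the same counts. The list shares 5 genes with the members (Axin2, Lef1, Tcf7, Lgr5 and Dkk1), and of the 13 tested outside them 2 were higher and 4 lower. Ccn4, a secreted matrix protein, fell from 629, 712 and 691 CPM in WT to 387, 377 and 387 in KO (log2 fold change -0.82, SE 0.07, edgeR adjusted p = 3.84e-33). Ccnd1, which encodes cyclin D1, fell from 147, 168 and 165 CPM to 114, 112 and 126 (-0.45, SE 0.07). Apcdd1, a membrane inhibitor of the pathway, fell by 0.39 on the log2 scale (SE 0.08). Cd44, a hyaluronan receptor, rose from 349, 362 and 357 CPM to 464, 446 and 441 (0.34, SE 0.07). Sp5 had no count in any library, and Lef1, Znrf3, Nkd1 and Tnfrsf19 were not called.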

How the data were processed

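The members and all gene lists were chosen with earlier results of these data known. The authors cleaned the read pairs, aligned them with Hisat2 2.0.5 to an Ensembl mouse genome and counted them per gene with featureCounts 1.5.0-p3. The deposited counts are raw, and the deposited FPKM values are proportional to counts over gene length within a library. The submitters' processing notes name GRCm38, but the deposited coordinates differ from that build and are those of GRCm39. Promoter windows are from GRCm38.p6, and nothing was converted between builds.

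Here, genes detected in 1 library or more (FPKM above 0) went into the quasi-likelihood test of edgeR 4.0.16 after TMM normalization, without covariates, in R 4.3.3, with Benjamini-Hochberg adjustment over all genes tested. Calling a DEG took a change of more than 2-fold with an adjusted p below 0.05. The prior degrees of freedom were infinite, which makes the p-values of unusually variable genes too small. DESeq2 1.42.0, limma-voom (limma 3.58.1), glmTreat against 2-fold, RLE scaling, other gene filters, a replicate block and leaving out each library were alternatives. SE is that of the fit, values after ± are SD, CPM used TMM factors, and FPKM served to compare levels between genes. Named were members with an adjusted p below 0.05, the 2 most abundant of each role and, of the other lists, each DEG and the 6 largest changes past the threshold at 1 CPM or more. Wnt6, Ctnnb1, Notum, Cd44, Apcdd1, chromosomal neighbours and other genes given in passing were added after their values were seen. No fold is given where a genotype had at most 3 counts in each library.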

Additional observations from a re-analysis of the deposited data

How the results depend on the processing

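The 5 higher and 1 lower member DEGs were 5 to 6 and 1 under DESeq2, limma-voom, RLE scaling and the other gene filters, and 4 to 7 and 1 when a library was left out. Tested against a 2-fold change with glmTreat, 2 higher members passed (Wnt10a and Wnt10b) beside Lgr5, and Axin2, Tcf7 and Wnt7b did not. Members lower at an adjusted p below 0.05 numbered 3 to 5 in those fits (5 without WT1). Other pathway genes that were higher numbered 9, but 5 by DESeq2, and 5 to 10 after omitting a library (5 without KO2 or KO3). The members' median log2 fold change was 0.15 to 0.30 in these fits. The summed ligand ratio of 1.45 was 1.14 with TMM-adjusted CPM and 2.89 without Wnt5a, since these alternatives weigh ligands differently by construction. Rspo3 changed sign, to -0.053, by limma-voom, and ranged from -0.13 to 0.33 after omitting a library. The cause was not tested for the other changes. Of 462 alternative values for 33 single genes, 425 kept direction and side of the threshold, 27 lost the threshold (16 of them against 2-fold), 5 gained it and 5 changed sign, all of these for Rspo3. Libraries of equal number did not deviate together (correlations of deviations -0.02, -0.02 and 0.04). These values cannot show whether such libraries shared a litter or a culture day. With the replicate block the member DEGs again numbered 5 and 1, and 10 other pathway genes were higher. Genes with few counts in a library, such as Axin2, Wnt7b, Rnf43 and Trabd2b in WT, are measured coarsely at this depth.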
